A study of Mus musculus with 2 samples.

Results

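The cytochrome P450 genes of the mouse were followed in AML12 cells, a non-transformed hepatocyte line. All protein-coding genes with a Cyp symbol followed by a family number were taken, Cyp51 excepted, and a gene was kept if it had 5 or more reads over both libraries. This left 49 of 99 coding P450 genes, out of 35275 genes in the table. Of the 49, 39 belonged to families 1 to 4, which oxidise drugs, foreign compounds and fatty acids, 9 to families that act on sterols, bile acids, steroid hormones, vitamin D or retinoids, and 1 to family 20. Gene symbols and types came from GENCODE M21.

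One condition was the untreated control (labelled Young), and the other was premature senescence induced with hydrogen peroxide (labelled Old). The peroxide was given for 1 h a day on 6 days, first at 1 mM and later at 750 µM, each time with 23 h of recovery in complete medium that contained dexamethasone. For both, the labels give liver of male CD-1 mice aged 3 months. AML12 is a single established line from a mouse that carried a human TGFα transgene, driven by a metallothionein promoter, so both conditions share this background. RNA of 3 samples was pooled into 1 library per condition. There was therefore no replicate check and no p-value, and every difference below compares these 2 libraries, not the conditions. In bulk RNA, fewer cells of a type and less RNA per cell cannot be told apart.

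P450 enzymes are heme proteins that insert an oxygen atom into their substrate. Most sit in the endoplasmic reticulum and take electrons from the reductase Por, while a few, such as Cyp27a1, work in mitochondria and take them from ferredoxin. The liver holds most of the xenobiotic P450 enzymes, and their genes are switched on by receptors that sense the compounds, among them AHR for planar aromatic molecules, PXR (Nr1i2) and CAR (Nr1i3) for drugs, and PPARα for fatty acids. Cultured hepatocytes are known to express many of them weakly.

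The control library held 28021941 reads and the senescent library 25738075. Levels are counts per 1000000 reads (CPM), scaled with TMM. For each gene a log2 ratio, senescent over control, was taken with a prior count of 1. Its 95% Clopper-Pearson interval, like the floors and the intervals of shares, covers counting error only, since 1 library per condition gives no replicate spread. The interval takes reads as independent, which amplified reads lacking molecular identifiers are not, so it can be too narrow. A call of higher or lower required 10 reads or more, a ratio past 1.5 on the log2 scale and an interval without 0. The detection floor of 3 reads was 0.103 CPM in the control and 0.121 CPM after peroxide.

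The sequence before the start of 5 members is shown, because these genes carry the contrasts described below: Cyp1a1 and Cyp1b1 share the receptor AHR but had unlike ratios, Cyp2c29 was counted higher, and Cyp3a13 and Cyp2j6 had the most reads of all families 1 to 4. The windows are the 250 bases before the RefSeq start on GRCm38.p6, written in the direction of the gene. In the first 2, capitals mark GCGTG, the core bound by AHR with ARNT, on either strand. In the others they mark AGGTCA (half-site of nuclear receptors), GTTAAT (half-site of HNF1), TGTTTAC (FOXA site) and TATAAA (the box that places the start in many promoters), also on either strand. No marked motifs overlap.
Cyp1a1, chr9:57697363-57697612, plus strand: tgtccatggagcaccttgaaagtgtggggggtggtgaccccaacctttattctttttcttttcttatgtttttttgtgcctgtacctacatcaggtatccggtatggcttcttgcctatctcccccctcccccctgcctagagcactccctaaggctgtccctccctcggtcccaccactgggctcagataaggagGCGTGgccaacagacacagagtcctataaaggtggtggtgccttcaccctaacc
Cyp1b1, chr17:79715062-79715311, minus strand: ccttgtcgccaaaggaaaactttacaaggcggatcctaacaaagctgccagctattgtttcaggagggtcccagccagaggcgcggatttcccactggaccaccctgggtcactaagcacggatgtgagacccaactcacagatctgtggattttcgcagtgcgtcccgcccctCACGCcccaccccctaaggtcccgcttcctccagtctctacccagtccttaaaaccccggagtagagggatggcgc
Cyp2c29, chr19:39286835-39287084, plus strand: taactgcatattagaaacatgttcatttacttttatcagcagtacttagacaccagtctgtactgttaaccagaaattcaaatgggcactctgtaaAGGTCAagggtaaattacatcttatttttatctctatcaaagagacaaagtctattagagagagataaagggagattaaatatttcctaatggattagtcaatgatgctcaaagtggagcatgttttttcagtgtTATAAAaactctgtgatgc
Cyp3a13, chr5:137921620-137921869, minus strand: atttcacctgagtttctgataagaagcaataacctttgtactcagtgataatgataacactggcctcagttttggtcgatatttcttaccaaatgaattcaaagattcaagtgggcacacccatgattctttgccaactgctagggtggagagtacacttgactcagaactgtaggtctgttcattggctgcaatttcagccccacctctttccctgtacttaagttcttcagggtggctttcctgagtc
Cyp2j6, chr4:96553652-96553901, minus strand: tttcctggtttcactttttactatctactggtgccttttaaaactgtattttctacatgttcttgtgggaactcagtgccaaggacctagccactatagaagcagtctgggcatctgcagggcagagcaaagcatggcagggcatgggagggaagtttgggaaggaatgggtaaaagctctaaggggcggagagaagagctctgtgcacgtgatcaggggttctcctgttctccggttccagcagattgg

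Cyp1a1 and Cyp1b1 each held 1 match to GCGTG, the first beginning 54 bases and the second 76 bases before the start. Cyp2c29 held AGGTCA 154 bases and TATAAA 19 bases before its start. The windows of Cyp3a13 and Cyp2j6 held none of their 4 motifs, which says only that these letters are not in these 250 bases. RefSeq windows were found for 39 of the 49 members, 43 windows in all. Of these, 17 (39.5%) held TATAAA, against 12.4% of 32851 windows of all genes, and 9 (20.9%) held GCGTG, against 28.2%. AGGTCA was in 18.6% of the members' windows and 14.0% of all, GTTAAT in 14.0% and 6.43%, and TGTTTAC in 6.98% and 3.17%. A match is a description and not a binding site.

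A few genes took most P450 reads in these cells. Cyp3a13, Cyp2j6, Cyp20a1 and Cyp39a1 together took 62.0% of the 14312 control reads on members and 70.6% of the 10398 senescent reads. Per length, as CPM per kilobase of exon (RPKM), the control order was led by Cyp20a1 at 33.4, Cyp2j6 at 30.3, Cyp3a13 at 23.2 and Cyp39a1 at 16.9. In the senescent library the order was Cyp3a13 at 49.2, Cyp20a1 at 33.1, Cyp2j6 at 12.4 and Cyp39a1 at 9.88, so the same 4 genes stood at the top in another order. Classic genes of adult liver were far below them: Cyp2e1 was at 0 and 0.934 RPKM, and Cyp3a11 at 0.0135 and 0.143.

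**Figure D1:**
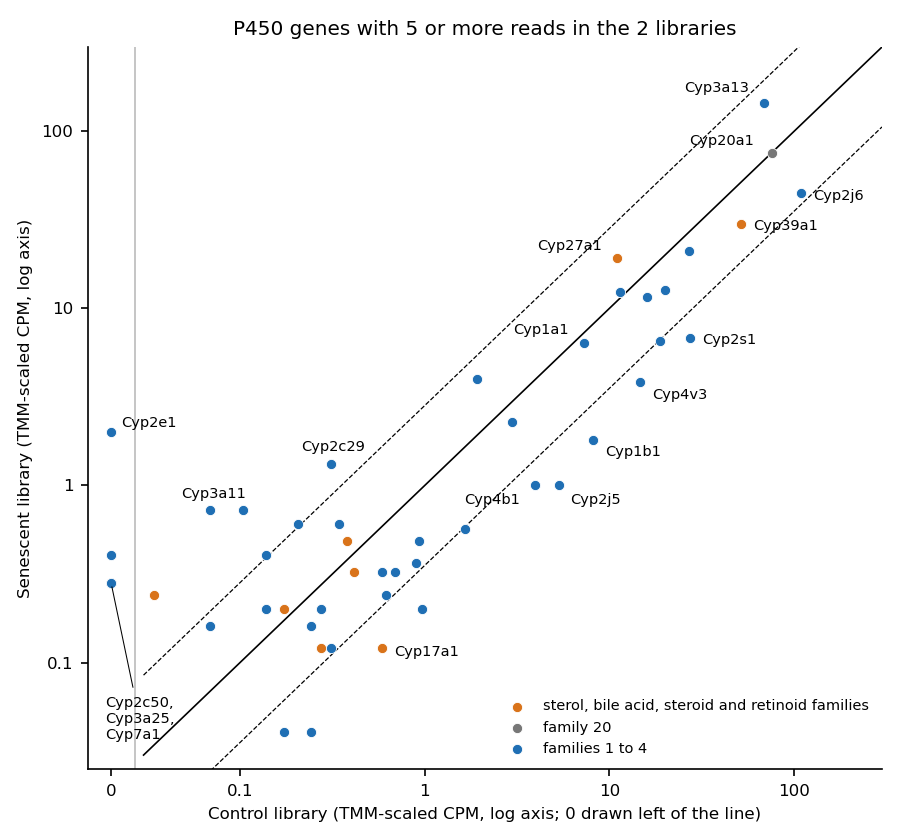
TMM-scaled CPM of the 49 members in the control (x) and senescent (y) library, both axes log, with genes at 0 in the control drawn left of the grey line. The solid line marks equal levels and the dashed lines 1.5 on the log2 scale. Cyp3a13 lies above the solid line at 68.4 and 145 CPM, most other well-read genes lie below it, and Cyp2e1 stands at the left edge.

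The other 50 coding P450 genes were near or at 0. Of these, 31 had no read in either library, and all 50 together took 16 control and 24 senescent reads. Families 11, 19, 21 and 24 had no member. Cyp19a1, the aromatase that makes oestrogens, had no reads. Family 11, which starts and ends adrenal steroid synthesis, had 1 read over 3 genes, Cyp21a1 had 2 and 1, and Cyp24a1, which breaks down vitamin D, had 0 and 1. Within the families that were read, the subfamilies Cyp2ab, Cyp2b, Cyp2g, Cyp2r, Cyp2w, Cyp4x, Cyp7b and Cyp26c had no member. The Cyp2b subfamily, whose Cyp2b10 is the usual target gene of CAR, had 2 reads in each library over its 5 genes. Just inside the limit stood 2 genes with 6 reads, Cyp2f2 (2 control, 4 senescent) and Cyp2c23 (5 and 1), and just outside stood 4 genes with 4 reads, Cyp2b10 (2 and 2), Cyp2c38 (4 and 0), Cyp2d9 (1 and 3) and Cyp4f40 (3 and 1). Reads this few do not show whether a gene differed between the libraries, and a gene with none is not shown to be absent.

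Of the 49 members, 41 had at least 10 reads. Of these 5 were counted higher in the senescent library (12.2%), 8 lower (19.5%) and 28 neither. Over all 14383 genes with at least 10 reads, 2.71% were counted higher and 5.6% lower. The median log2 ratio of the 41 was -0.47, against -0.02 over all genes. Among the 18 members with 100 or more reads, where counting error is smaller, 0 were higher and 6 lower (33.3%), against 1.25% and 3.5% of 11291 genes of that depth, and the median was -0.56 against 0.01. Of the 18 intervals, 11 lay wholly below 0, 3 wholly above 0 (Cyp3a13, Cyp27a1 and Cyp2c65) and 4 held 0. All 5 higher genes had fewer than 100 reads, and 6 of the 8 lower genes had 100 or more. Among the 23 members with 10 to 99 reads 5 were higher (21.7%) and 2 lower (8.70%), against 8.05% and 13.3% of 3092 genes of that depth.

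**Figure D2:**
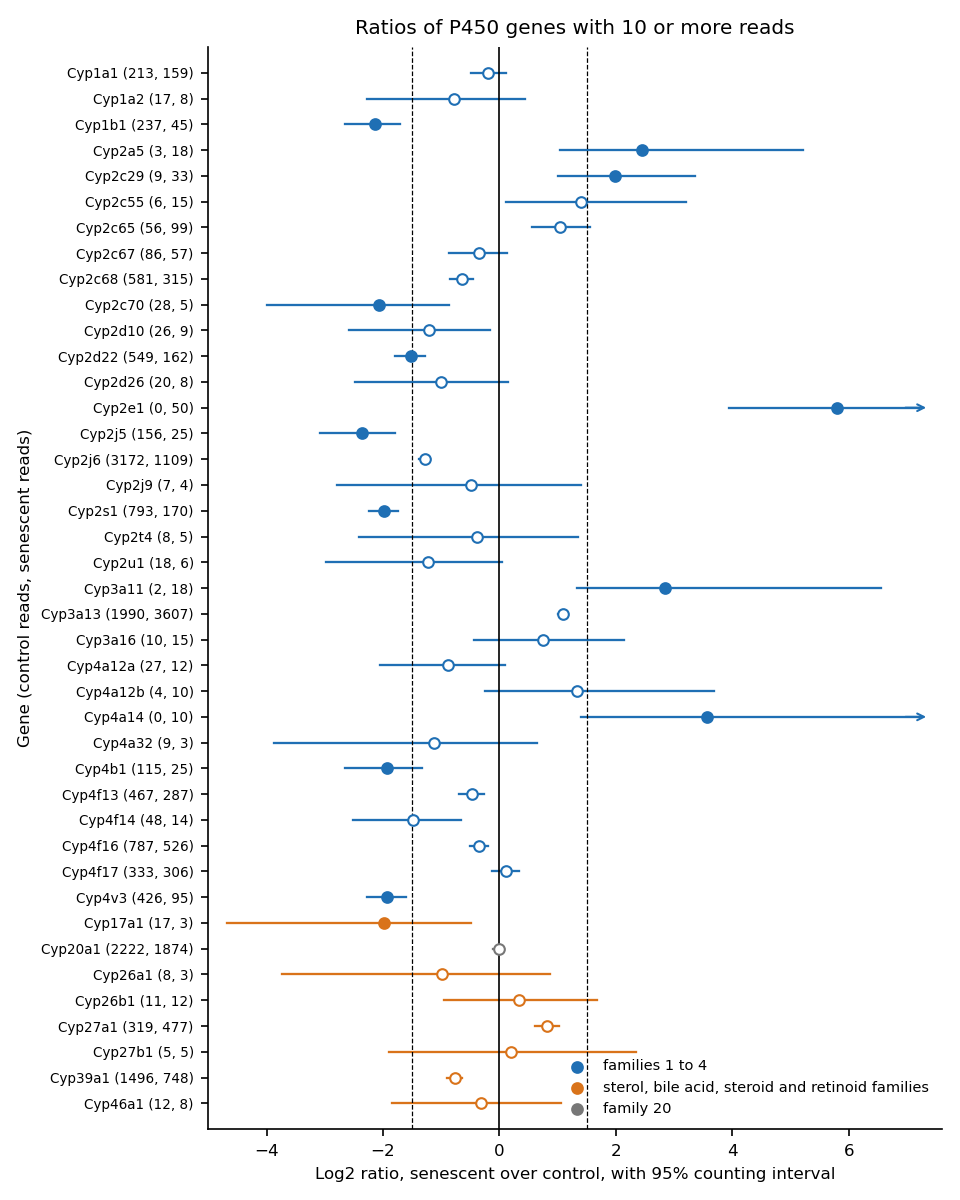
Log2 ratios of senescent over control (x) for the 41 members with 10 or more reads, with 95% counting intervals as lines. Filled points were counted as higher or lower, dashed lines mark 1.5, arrows mark intervals without an upper end, and the reads in the control and senescent library stand behind each name. The 5 filled points on the right have wide intervals, and most of the 8 on the left have narrow ones.

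Family 1 holds the genes that AHR induces. Cyp1b1, which oxidises polycyclic aromatic compounds and oestrogens, had 237 control and 45 senescent reads and was counted lower, with a log2 ratio of -2.14 (95% interval -2.66 to -1.70). Cyp1a1, the usual readout of AHR activity, had 213 and 159 reads, a ratio of -0.19 (-0.50 to 0.11). Cyp1a2, an abundant enzyme of adult liver, had 17 and 8 reads and a ratio of -0.79 (-2.28 to 0.43). Only Cyp1b1 of the 3 passed the threshold, and its interval did not overlap that of Cyp1a1. Cyp2s1, a member of family 2 that AHR ligands also induce, had 793 and 170 reads and was counted lower at -1.99 (-2.24 to -1.75). It shares 260 exonic bases with Gm26707 on the other strand, and the use of strand in the counting is not given in the sources used here.

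Ahr had 1207 and 1144 reads, a ratio of 0.15 (0.03 to 0.27), and its partner Arnt 1264 and 1365, a ratio of 0.34 (0.23 to 0.45). Among 6 further AHR targets with enough reads, 3 were lower and 0 higher, against 5.6% and 2.71% of all genes. These 3 were the aldehyde dehydrogenase Aldh3a1 (72 and 15 reads), and the glucuronosyltransferases Ugt1a6a (121 and 28) and Ugt1a6b (236 and 68), which share exons. Tiparp, an ADP-ribosyltransferase that restrains AHR, had 732 and 1293 reads and a ratio of 1.05, Gsta1 567 and 952 reads and a ratio of 0.98, and Nqo1 9 and 22 reads. The AHR genes thus did not share a direction, and the AHR repressor Ahrr had no reads.

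Family 2 was the largest, with 21 members. Of the 17 with enough reads 3 were higher, 4 lower and 10 neither, with a median of -0.65. The shares over all genes were 2.71% higher and 5.6% lower. Its most read gene was Cyp2j6. Cyp2j6 had 3172 and 1109 reads, a ratio of -1.29 (-1.39 to -1.19) that did not reach the threshold. Its neighbour Cyp2j5, an epoxygenase of kidney and liver, had 156 and 25 reads and was counted lower at -2.37 (-3.08 to -1.80), the lowest ratio of the 41. The third Cyp2j member, Cyp2j9, had 7 and 4 reads. All 3 had fewer scaled reads in the senescent library, though the interval of Cyp2j9 held 0.

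The Cyp2d subfamily was also lower in sum, with 595 and 179 reads over 3 members. Cyp2d22, which is seen as the mouse counterpart of the human drug enzyme CYP2D6, took most of them (549 and 162) and was counted lower at -1.53 (-1.79 to -1.28), close to the threshold, a call that was lost with the interval widened for a coefficient of variation of 0.4. Cyp2d10 had 26 and 9 reads and Cyp2d26 had 20 and 8, with ratios of -1.22 and -1.01. Cyp2u1, a fatty acid hydroxylase, had 18 and 6.

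The 9 members of the Cyp2c subfamily went in different directions. Cyp2c68 had the most reads, 581 and 315, with a ratio of -0.65 (-0.86 to -0.45). Cyp2c67 had 86 and 57 reads and a ratio of -0.36 (-0.87 to 0.14), and Cyp2c65 had 56 and 99 reads and a ratio of 1.04 (0.56 to 1.55). Cyp2c70, which makes the muricholic acids of mouse bile and so acts on bile acids although it stands in family 2, had 28 and 5 reads and was counted lower at -2.07 (-3.99 to -0.86). Cyp2c29, a Cyp2c enzyme of mouse liver, had 9 and 33 reads and was counted higher at 1.98 (1.01 to 3.35), a ratio of scaled reads of 4.30 (2.01 to 10.2). Cyp2c40, Cyp2c67 and Cyp2c68 shared 45.9%, 36.0% and 28.5% of their 75-base exonic windows with other genes, so how the reads divide among them is uncertain.

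The other higher genes of family 2 were Cyp2e1 and Cyp2a5. Cyp2e1, which oxidises ethanol and paracetamol, was not read in the control and had 50 reads after peroxide. This level was 19.5-fold above the control floor of 3 reads, and the interval of the log2 ratio began at 3.94. Cyp2a5, the coumarin hydroxylase, had 3 and 18 reads, a ratio of scaled reads of 7.04 (2.05 to 37.3), and shared 22.3% of its windows with other genes, mainly Cyp2a4.

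Family 3 held 4 members, and the sum over them moved against the other xenobiotic families. Cyp3a13, a Cyp3a enzyme of gut and liver, had 1990 and 3607 reads and a ratio of 1.09 (1.01 to 1.17). It was the P450 gene with the most reads in the senescent library but lay under the threshold of 1.5. It stands apart on chromosome 5 (chr5:137892932-137921619) from the cluster of 8 other Cyp3a genes at chr5:145345279-146113287. In that cluster 3 genes were members, with 12 and 40 reads in sum. Cyp3a11, the main drug-metabolising Cyp3a enzyme of mouse liver and a target of PXR, had 2 and 18 reads and was counted higher, with a ratio of scaled reads of 10.6 (2.53 to 93.8). Cyp3a16, a form of fetal liver, had 10 and 15 reads, and Cyp3a25 0 and 7. All 4 had more scaled reads in the senescent library, and the interval of Cyp3a16 held 0.

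Family 4 hydroxylates fatty acids and related lipids at their far end. Of its 11 members 10 had enough reads: 1 was higher, 2 lower and 7 neither, where 2.71% of all genes were higher and 5.6% lower. Cyp4v3, the counterpart of human CYP4V2, had 426 and 95 reads and was counted lower at -1.92 (-2.27 to -1.61). It shares 313 exonic bases with Gm45753 on the same strand. Cyp4b1, which activates toxic arylamines and furans, had 115 and 25 reads and was counted lower at -1.93 (-2.66 to -1.34). The Cyp4f genes, which inactivate leukotrienes and hydroxylate long fatty acids, had ratios nearer to 0: Cyp4f16 had 787 and 526 reads with a ratio of -0.35, Cyp4f13 467 and 287 with -0.47, and Cyp4f17 333 and 306 with 0.11 (-0.12 to 0.34). Cyp4f14 had 48 and 14 reads, and its ratio of -1.49 lay just under the threshold.

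The Cyp4a genes, which PPARα controls, were near the floor. Cyp4a14 had 0 and 10 reads, 3.91-fold above the control floor, and the interval of its log2 ratio began at 1.39. Cyp4a12a had 27 and 12, Cyp4a12b 4 and 10, and Cyp4a32 9 and 3, all with intervals that held 0. Cyp4a12a and Cyp4a12b share 40.8% and 41.3% of their windows, so their opposite ratios are uncertain. The 4 Cyp4a members together had 40 and 35 reads, a ratio of 0.04 (-0.66 to 0.73). Ppara had 1062 and 438 reads, a ratio of -1.05.

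The 5 higher genes, Cyp2e1, Cyp3a11, Cyp2a5, Cyp2c29 and Cyp4a14, are all expressed in adult liver. So are members with fewer scaled senescent reads, such as Cyp2j5 (156 and 25 reads, counted lower) and Cyp1a2 (17 and 8). The interval of Cyp1a2 held 0. Expression in adult liver is thus not particular to the 5 higher genes, and its part in the ratios was not tested. Among the 49 members, 5 had no control reads and 0 had no senescent reads. Among all 4247 genes with 5 to 99 reads, 109 had no control reads and 117 no senescent reads. Other genes abundant in adult liver were counted beside the 5 higher genes, from a list made after the values were seen. Of 60 such genes, 46 had under 100 reads in all, and 37 of these 46 had more scaled reads in the senescent library, as had Mug1 (0 and 43 reads), Serpina3k (0 and 19) and Plg (0 and 18). All 13 genes of the list that were counted higher were among the 46. Of the 14 with 100 or more reads, 1 had more scaled reads in the senescent library, and albumin had 32076 and 2917. Of the 31 members with fewer than 100 reads 16 had more scaled reads in the senescent library, and of the 18 with 100 or more 4 had. Over all genes, 51.2% of the 7591 with 1 to 99 reads and 45.7% of the 4247 with 5 to 99 had more in the senescent library. The control had no reads on 21 of the 60 listed genes and the senescent library on 0 of them. Since the list was made with these values in view, genes without control reads could enter it by choice. Its counts are a description and cannot be compared with the shares over all genes. The part of the listed genes in the P450 ratios was not tested.

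The families for sterols, bile acids, steroids, vitamin D and retinoids held 9 members of 17 coding genes. Of the 7 with enough reads 0 were higher, 1 lower and 6 neither, with a median of -0.32. The shares over all genes were 2.71% higher and 5.6% lower. At 10 to 99 reads, the depth of the lower gene, they were 8.05% and 13.3%. Only Cyp39a1 and Cyp27a1 had 100 or more reads. Cyp39a1, which hydroxylates 24-hydroxycholesterol on the way to bile acids, had 1496 and 748 reads and a ratio of -0.77 (-0.90 to -0.64). Cyp27a1, the mitochondrial enzyme that opens the acidic pathway of bile acid synthesis, had 319 and 477 reads and a ratio of 0.81 (0.60 to 1.02). Neither reached the threshold, and their intervals lay on opposite sides of 0.

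The classic pathway of bile acid synthesis was hardly read. Cyp7a1, its rate-limiting enzyme, had 0 and 7 reads, 2.74-fold above the control floor, and was too low for a call. The interval of its log2 ratio began at 0.757. Cyp8b1, which sets the share of cholic acid, had 1 and 6 reads, a ratio of scaled reads of 7.04 (0.854 to 324). Cyp7b1 had none. Cyp46a1, the cholesterol 24-hydroxylase best known from brain, had 12 and 8. Among 11 other bile acid genes with enough reads 2 were higher and 4 lower, with a median of -0.34. The shares over all genes were 2.71% higher and 5.6% lower, and at 10 to 99 reads 8.05% and 13.3%. The lower genes were Acox2 (1380 and 153 reads), which shortens the side chain, the reductase Akr1d1 (339 and 80), the conjugating enzyme Baat (19 and 1) and the FGF co-receptor Klb (886 and 148). The higher ones were both near the floor, the acyl-CoA synthetase Slc27a2 (0 and 12) and the bile salt pump Abcb11 (2 and 11). Hsd3b7, which works next to the P450 steps, had 3268 and 4929 reads and a ratio of 0.82.

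Cyp17a1, the steroid 17α-hydroxylase, was the only steroid P450 gene with 5 or more reads. It had 17 and 3 reads and was counted lower at -1.98 (-4.69 to -0.48), a ratio of scaled reads of 0.207 (0.0389 to 0.715). This call, the only one outside families 1 to 4, was lost at a prior count of 5 (-1.33), at a threshold of 2 and with an interval widened for a coefficient of variation of 0.4. Of 7 other steroid genes with enough reads 2 were lower, Hsd17b2 (47 and 6 reads) and Hsd11b2 (23 and 4), which inactivate oestradiol and glucocorticoids. Both had 10 to 99 reads, a depth at which 13.3% of all genes were lower. For vitamin D, Cyp27b1, which makes the active hormone, had 5 reads in each library, and the interval of -1.89 to 2.35 leaves its ratio undetermined.

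The retinoid P450 genes, which clear retinoic acid, had few reads. Cyp26a1 had 8 and 3, and Cyp26b1 had 11 and 12, with ratios of -0.98 (-3.73 to 0.87) and 0.33 (-0.95 to 1.68). Other retinoid genes ranged from no reads (Crabp1) to 23129 and 14390 on Aldh1a1. Rdh10, which oxidises retinol, had 1039 and 7424 reads and was counted higher at 3.07 (2.97 to 3.16), and Aldh1a3, which makes retinoic acid, had 3 and 15. Dhrs3, which turns retinal back to retinol, had 1507 and 332 reads and was counted lower at -1.95. Of 9 such genes 2 were higher and 1 lower, against 2.71% and 5.6% of all genes, with a median of -0.44. Differences at the low counts of the Cyp26 genes were not detectable at this depth.

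Cyp20a1, a P450 gene with no settled substrate, had 2222 and 1874 reads and a ratio of -0.02 (-0.11 to 0.07). Under total-count scaling this ratio was -0.12.

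Families 1 to 4 and the sterol, bile acid, steroid, vitamin D and retinoid families were then set side by side. Of the first 33 had enough reads, and 5 were higher (15.2%), 7 lower (21.2%) and 21 neither, with a median of -0.49. Of the second 7 had enough, with 0 higher, 1 lower (14.3%) and a median of -0.32, which was 0.19 with at least 5 reads and 0.02 with at least 100. Over all genes 2.71% were higher and 5.6% lower. With 100 or more reads, 6 of 15 and 0 of 2 were lower, against 3.5% of all genes of that depth. The second group there rests on a pair of genes that went opposite ways, and 2 genes cannot show a contrast between the groups. Summed reads gave close values, with log2 ratios of -0.26 (-0.31 to -0.22) for families 1 to 4 and -0.33 (-0.43 to -0.23) for the others. The 2 groups were not compared by a test, and their sums had overlapping intervals.

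The sum over all members changed little, while its makeup shifted among the xenobiotic families. Members summed to 492 CPM and 419 CPM, which is -0.23 on the log2 scale (-0.27 to -0.19). Family 2 took 38.6% of the control reads on members (exact binomial interval 37.8 to 39.4) and 20.3% of the senescent (19.5 to 21.05). Family 3 took 14.0% (13.4 to 14.6) and 35.1% (34.2 to 36.0). In family 3 nearly all of these reads were on Cyp3a13, with 13.9% and 34.7%. In family 2 the share of Cyp2j6 was 22.2% and 10.7%, that of Cyp2s1 5.54% and 1.63%, and that of Cyp2d22 3.84% and 1.56%. Family 4 took 15.5% and 12.4%, family 1 took 3.26% and 2.04%, and the sterol to retinoid families 13.1% and 12.2%. Summed by family, the log2 ratios were -0.91 for family 1, -1.16 for family 2, 1.09 for family 3 and -0.56 for family 4.

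**Figure D3:**
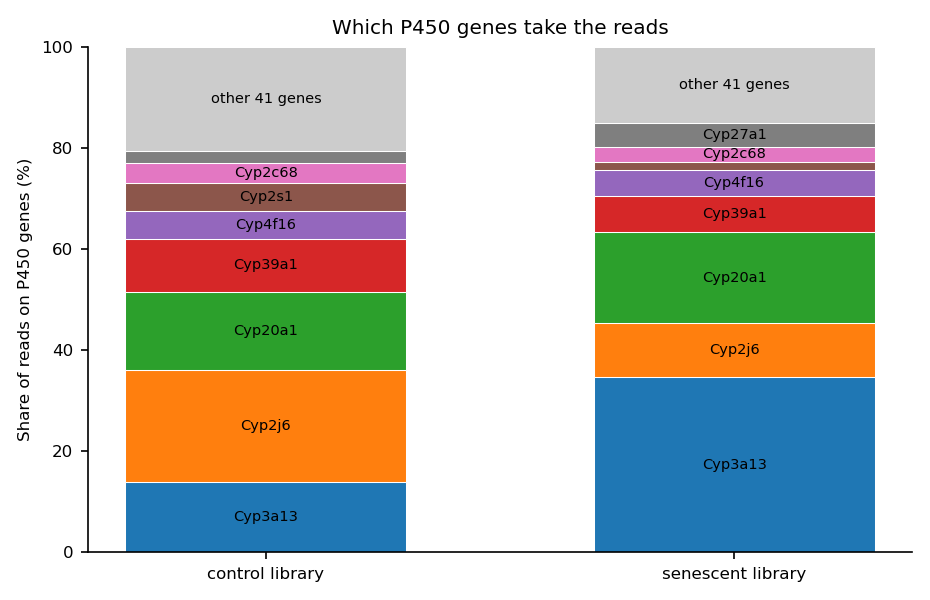
Share of the reads on the 49 members (y, percent) taken by the 8 genes with the most reads and by the other 41 genes, in the control and the senescent library. Cyp2j6 took 22.2% and 10.7%, and Cyp3a13 13.9% and 34.7%, while Cyp20a1 took 15.5% and 18.0%. The narrow unlabelled band is Cyp27a1 in the control and Cyp2s1 in the senescent bar.

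Many members lie in gene clusters, taken here as P450 genes less than 500 kb apart. The Cyp2j cluster at chr4:96027534-96664154 had 3 members of 8 genes, with 3335 and 1138 reads. The cluster of Cyp2a, Cyp2b, Cyp2f, Cyp2s and related genes at chr7:25802475-27158668 had 4 members of 13 genes, and 793 of its 806 control reads were on Cyp2s1. Cyp2c genes at chr19:39007019-40187333 gave 8 members of 14 genes, with 770 and 536 reads and both directions among them. The Cyp4f cluster at chr17:32452723-32947402 gave 5 of 8, with 1642 and 1134. These 4 clusters each held well-read genes beside genes with no reads. In all, 12 members shared over 10% of their exonic windows with another gene and 8 overlapped an exon of another gene. Without these 12, 4 of 32 members with enough reads were higher (12.5%) and 8 lower (25%). Over all genes with 10 or more reads, 2.71% were higher and 5.6% lower, and at 10 to 99 reads 8.05% and 13.3%.

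P450 enzymes depend on electron donors and on heme. Of 8 electron donors 0 were counted higher or lower, with a median of -0.14. Por, the donor of all P450 enzymes in the endoplasmic reticulum, had 4431 and 3582 reads and a ratio of -0.08 (-0.14 to -0.01), and cytochrome b5 (Cyb5a) had 8618 and 4129 reads and a ratio of -0.83. Of 12 genes of heme synthesis and breakdown 0 were counted either way, with a median of -0.31. All genes of these lists had 100 or more reads, a depth at which 1.25% of all genes were higher and 3.5% lower. A count of 0 in lists this short is near those shares. Alas1, which limits heme synthesis in liver, had 1354 and 1159 reads and a ratio of 0.01, Fech, which inserts the iron, had 2194 and 1240 and -0.59, and Hmox1, which breaks heme down, had 950 and 1417 and 0.81.

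Of 26 receptors and transcription factors that control P450 genes, 0 were higher and 6 lower, with a median of -0.50. Of all genes with 10 or more reads, 2.71% were higher and 5.6% lower. The 6 lower factors were PXR (Nr1i2, 45 and 8 reads), CAR (Nr1i3, 63 and 16), Nr5a2 (349 and 30), which drives bile acid genes, and the liver factors Foxa1 (276 and 61), Foxa3 (799 and 120) and Onecut1 (332 and 62). The remaining 20 were not counted, and their ratios ranged widely. Cebpa had 1993 and 626 reads and -1.44, the oxysterol receptor Nr1h3 had 1126 and 427 and -1.17, the vitamin D receptor Vdr had 336 and 128 and -1.16, and Rxra, the partner of many of these receptors, had 1916 and 1097 and -0.57. Others were near 0: Hnf4a had 8187 and 7705 reads and 0.14, the bile acid receptor Nr1h4 had 6458 and 5262 and -0.07, and the glucocorticoid receptor Nr3c1 had 3280 and 2950 and 0.08. PXR was lower while its target Cyp3a11 was higher, both at low counts. Among 8 other enzymes that act on foreign compounds 1 was higher, the aldehyde oxidase Aox3 (0 and 12 reads), and 1 lower, the monooxygenase Fmo5 (111 and 15). The epoxide hydrolase Ephx1 had 4335 and 3649 reads and a ratio of -0.02.

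**Figure D4:**
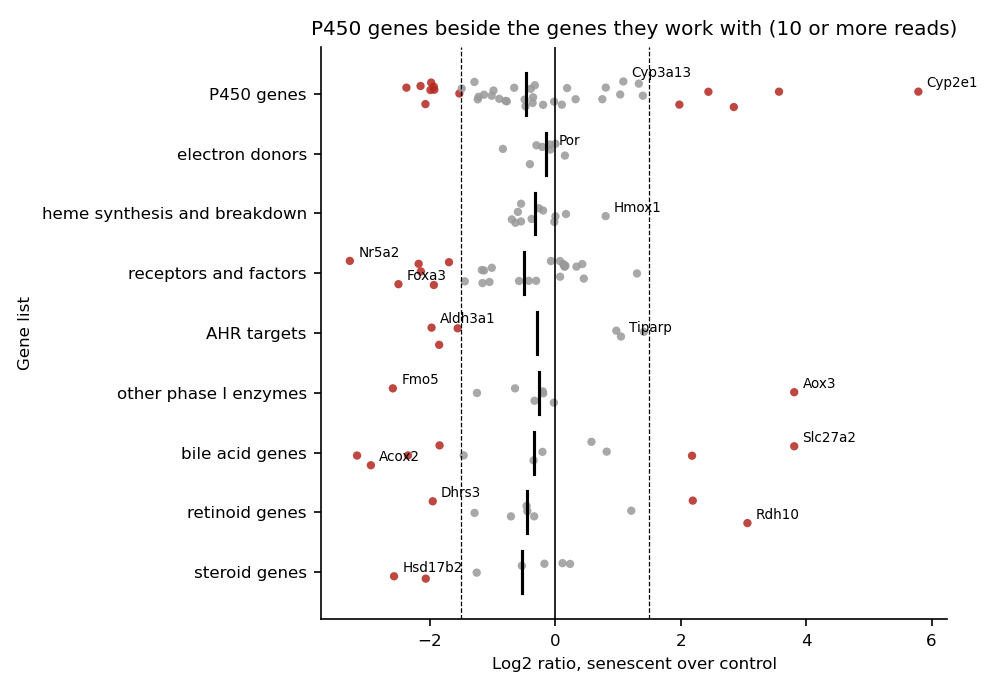
Log2 ratios of senescent over control (x) for P450 genes and 8 lists of related genes (y), for genes with 10 or more reads. Each point is a gene, red where it was counted higher or lower, black bars are medians, and dashed lines mark 1.5. Electron donors and heme genes show no red point, and 6 receptors and factors lie left of the lower line. Of all genes with 10 or more reads, 2.71% were counted higher and 5.6% lower.

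The labelled cell type was checked against markers. Of 10 hepatocyte markers, all had at least 10 reads in sum and 2 were lower, albumin and Apoa1 (2026 and 197), whereas the keratins Krt8 and Krt18 had ratios of 0.51 and 0.82. Of the 10 ratios 6 lay above 0 and 4 below, with a median of 0.08. Of 7 macrophage markers Adgre1, Clec4f and Marco were at 0 in both libraries, and Ptprc (27 and 76 reads) and Csf1r (15 and 40) were higher, while Cd14 held 5551 and 1879 of the list's 5627 and 2035 reads. Of 8 stellate cell and fibroblast markers Acta2, Col1a2 and Col3a1 were at 0, Col1a1 (21 and 1 reads) was lower, and Vim held 19877 and 26489 of 19904 and 26494 reads with a ratio of 0.64. The 6 endothelial markers had 6 and 14 reads in sum. Of 5 cholangiocyte markers Krt7, Krt19, Sox9 and Spp1 were read, with 55165 and 35238 reads over the list and at most 1 on Epcam. Their 4 ratios, 1 above 0 and 3 below, had a median of -0.53. Over all genes with 100 or more reads, 1.25% were higher and 3.5% lower, and at 10 to 99 reads 8.05% and 13.3%. The part of other cell types in the P450 ratios was not tested.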

How the data were processed

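RNAseq of control and senescent AML12 cells was analysed from un-normalised read counts per gene, deposited by the authors as 1 table. The submitters' processing notes name CASAVA, STAR, DESeq2, edgeR and mm10, without versions, and the tool and strand setting used for counting are not given in the sources used here. Columns were assigned by the initials of the library titles. Of the table's 35275 genes, 34490 (97.8%) matched a GENCODE M21 symbol. TMM factors came from edgeR 4.0.16 in R 4.3.3, and alternative size factors from DESeq2 1.42.0. Ratios, exact binomial (Clopper-Pearson) intervals and plots used Python 3.11.15, numpy 2.4.6, pandas 2.3.3, scipy 1.17.1 and matplotlib 3.10.9, and were checked on simulated data. With 1 pooled library per condition, edgeR's quasi-likelihood test could not be applied. A fold against the floor was given only where a library had no reads. It takes the count of the other library as exact, so the lower end of the interval stands beside it. With 1 to 3 reads the ratio of scaled reads and its interval are given instead.

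The members, gene lists, thresholds and alternatives were chosen with earlier results of these data known. Members counted higher or lower, members with a mean of 100 scaled reads or more and members outside families 1 to 4 could be named, with up to 3 others per subfamily, and of each list the counted genes and up to 6 others with the most reads. Ahr, Arnt, Ppara, Ahrr, Cebpa, Nr1h3, Vdr, Rxra, Crabp1, Cyp2c23, Cyp2c40, the genes with 4 reads or fewer, and Mug1, Serpina3k and Plg fall outside this and were named after their values were seen, as were the markers at 0. Exonic sequence was called shared where a 75-base window occurred in transcripts of another gene. Alternatives covered scaling, prior count, minimum reads, threshold and interval width.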

Additional observations from a re-analysis of the deposited data

How the results depend on the processing

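No paired analysis was possible because each condition had 1 library, and no replicate could be left out. Total-count, DESeq2 and upper-quartile scaling shifted the ratio of scaled reads by -0.11, -0.01 and -0.04 on the log2 scale, and genes near the floor, where the prior count weighs more, by less. The count of higher members, 5, was 8 with at least 5 reads, 0 with at least 100 reads and 8 at a threshold of 1. The count of lower members, 8, was 3 at a threshold of 2. Over all genes 2.71% were higher and 5.6% lower, and 1.25% and 3.5% with at least 100 reads. These shares were not taken at the other settings, so the changed counts there have no background beside them. The summed log2 ratio, -0.23, was -0.34 under total-count and -0.27 under upper-quartile scaling. The median of the sterol to retinoid families, -0.32, was 0.19 with at least 5 reads and 0.02 with at least 100, so its sign rests on genes near the floor. Of 31 genes followed, 267 of 279 pairs of gene and setting kept direction and call, and no called ratio changed sign. Cyp17a1 lost its call at a prior count of 5, and Cyp17a1 and Cyp2d22 lost theirs with intervals widened for a coefficient of variation of 0.4. At a threshold of 2, Cyp2c29, Cyp2s1, Cyp4b1, Cyp4v3, Cyp2d22 and Cyp17a1 lost theirs, and at 1, Cyp2c65, Cyp3a13 and Cyp2j6 gained one. Depth limits members with fewer than 100 reads, 31 of 49.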

Other observations

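P450 genes that the rule leaves out were read as well. Cyp51, the lanosterol demethylase of cholesterol synthesis, had 5868 control and 3118 senescent reads, more than any member in the control, and a log2 ratio of -0.68 (-0.75 to -0.62). Tbxas1, the thromboxane synthase, had 24 and 29 reads and a ratio of 0.48 (-0.33 to 1.35), and Ptgis, the prostacyclin synthase, had no reads in either library.

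Of 16 non-coding genes with a Cyp symbol, 3 had any reads. The pseudogene Cyp4f41-ps had 50 and 17 reads, a ratio of -1.28 (-2.21 to -0.51), Cyp2c53-ps had 11 and 5, and Cyp2d37-ps had 1 and 0. Cyp2c53-ps shares 142 exonic bases with Cyp2c29 on the same strand, and its ratio of -0.80 (-2.78 to 0.73) lay on the other side of 0 from that of Cyp2c29, at 1.98 (1.01 to 3.35).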
